A study of Mus musculus with 3 samples.

Results

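The genes described are the ligands, receptors and inhibitors of Wnt signalling, with a few of its intracellular components. A gene probe was a member where the name in the files was Wnt, Fzd, Sfrp or Dkk followed by a number, or was Frzb, Lrp5, Lrp6, Axin1, Axin2, Ctnnb1, Lef1 or Porcn. Wif1 was kept only if it lay away from chromosome 10, and it did not, so it was left out. The rule took 64 of 41174 gene probes and 45 of 27438 genes, and it used names and positions but no measured value. Each of 3 two-colour arrays compared RNA pooled from 2 hearts labelled Lrrc10-/-, in Cy5, with RNA pooled from 2 littermate hearts labelled wild type (WT, Lrrc10+/+), in Cy3. The deleted gene, Lrrc10, codes for a cardiac protein with leucine-rich repeats, and the question was which transcripts differ in embryonic hearts that lack it. All hearts were taken at embryonic day 15.5 from mice on a C57BL/6 background that carry a germline deletion or its intact counterpart, so every cell type of the heart shared the genotype. The WT labels also hold an adult age beside the embryonic one, and the embryonic age was used. Arrays are named replicates 1, 2 and 3 as in the labels. The dyes were never exchanged, so genotype and dye cannot be told apart.

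The targeted gene went against the labels. Processed signals of Lrrc10, read by 1 probe (A_51_P441687), were 6294, 8521 and 12640 in the channel labelled Lrrc10-/- and 280.7, 236.8 and 199.8 in the channel labelled WT on replicates 1, 2 and 3. The mean log2 ratio was 4.41 ± 0.40 (SD, n = 3), limma adjusted p = 0.000387. The sources used here do not give the deleted stretch, so whether the probe lies inside it is not settled. Whether the dye or genotype labels were exchanged was not tested, and an exchange would reverse every direction given below. Directions below are therefore those of the channels, and "higher" always means higher in the channel labelled Lrrc10-/- than in the channel labelled WT.

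Wnt proteins are secreted, lipid-modified ligands that bind Frizzled receptors on the cell surface. In the canonical branch, Frizzled and its co-receptors Lrp5 and Lrp6 stop the Axin complex from marking beta-catenin for destruction, and beta-catenin then activates target genes together with Tcf and Lef factors. Other Wnts act through planar polarity or Ryk and Ror receptors, Sfrp proteins and Frzb bind the ligands, Dkk proteins act on the co-receptors, and this signalling takes part in forming the second heart field, valves, epicardium and outflow tract.

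As whole-heart RNA, both channels carried the muscle and supporting cells of the organ. All 10 cardiomyocyte markers and all 8 endothelial, 7 epicardial and 8 mesenchymal markers were well above background in both channels of every array. The liver list did not stay level: its summed signal was 24880, 2476 and 3533 in Cy5 of replicates 1, 2 and 3 and 14510, 28450 and 2316 in Cy3, highest in the WT channel of replicate 2 and in the Cy5 channel of replicate 1. Afp, a fetal liver protein, had a log2 ratio of -5.15 on replicate 2, beside 0.82 and 0.77 on replicates 1 and 3. Of 7 markers of lung and foregut epithelium, 2 (Krt8 and Krt18, which other epithelia also make) were well above background throughout, Cdh1 and Epcam in Cy3 on all arrays and in Cy5 on 2, and Nkx2-1, the defining lung regulator, in Cy5 on 0 and in Cy3 on 1. Sftpc was well above background on 2 arrays in each channel, and Sftpb on 1 in Cy5 and 2 in Cy3. The summed signal of the 7 markers ran from 5647 to 10380 in Cy5 and from 5638 to 10010 in Cy3. The part of these lists in the results below was not tested. In whole tissue, fewer cells of a type and less RNA per cell cannot be told apart, and all values carry the precision of so few arrays.

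Taken as a set, the tested Wnt components had log2 ratios that centred near 0. A gene was tested where its probe was well above background on all arrays in at least 1 of the channels, and the tested probe of highest intensity stood for the gene. Of the 45 genes, 36 were tested, 34 of them well above background in both channels throughout. Their median log2 ratio was 0.01, with means from -0.29 to 1.24, beside a median of 0.03 over all 18879 tested genes. With limma and Benjamini-Hochberg adjustment over all tested probes, 1 of the 36, Fzd3, was higher (2.78%), where 1.82% of all tested genes were, and 0 were lower, where 0.0053% were. At an unadjusted p under 0.05, 5 were higher (13.9%, beside 10.7% of all genes) and 0 were lower (beside 4.2%). Ratios had 1 sign on all 3 arrays for 7 genes on the higher side (19.4%, beside 21.4% of all genes) and for 6 on the lower side (16.7%, beside 16.0%). These shares lay near those of all genes.

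The 3 arrays bounded the differences that remained below the threshold. The 95% interval of a member's mean log2 ratio reached a median of 0.29 to either side, from 0.27 to 0.56, and it held 0 for 31 of the 36 genes. For 6 of the 36 the interval reached past a 1.5-fold change in 1 direction or the other. On single arrays the members' ratios spread with an SD of 0.32, 0.29 and 0.41 on replicates 1, 2 and 3, beside 0.35, 0.33 and 0.40 over all tested genes. In the study's kind of selection, which asks for a change of at least 1.2-fold in 1 direction on every array by the scanner software's ratios, Fzd3 was again the 1 member that rose, beside 2.71% of all genes, and 0 members fell, beside 0.127%.

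**Figure D1:**
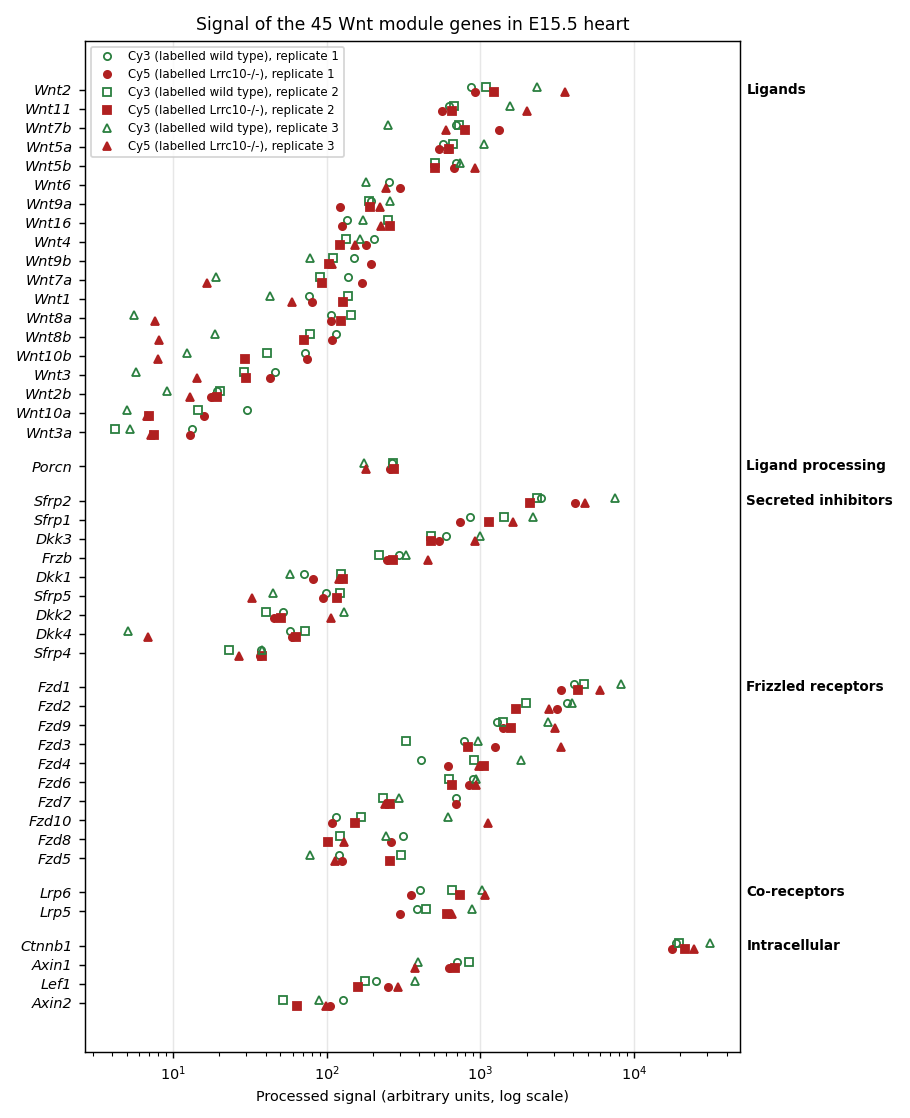
Processed signal (x axis, arbitrary units, log scale) of the 45 Wnt genes in each channel of the 3 arrays, grouped by role and ordered by mean signal. Red filled marks are Cy5, green open marks Cy3, and the shape gives the replicate. Signals range from 4.18 for Wnt3a to 31200 for Ctnnb1, and Fzd3 is the gene whose red marks lie to the right of the green ones on every array by the widest mean margin.

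The order of probe signal ran from beta-catenin down to ligands at background. Probes bind with different strength, so this order is one of signals and not of transcript number. Ctnnb1, which encodes beta-catenin, had the brightest probe with a mean processed signal of 22230 over channels and arrays, and it lay between the 95.9th and 97.5th percentile of all gene probes. Fzd1, Sfrp2, Fzd2, Fzd9, Wnt2, Sfrp1, Fzd3, Wnt11 and Fzd4 followed, from 5132 for Fzd1 to 968.6 for Fzd4. At most 2 of these 10 genes were replaced when 1 channel or 1 array was left out. In all, 21 of the 45 genes lay above the 50th percentile of all gene probes in every channel and array. At the other end, Wnt3a, Wnt10a and Wnt2b had mean signals of 8.38, 13.2 and 16.4, at or below the 25.7th percentile everywhere, and Wnt3a was not well above background in either channel on any array.

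Ligands made up 19 of the 45 genes, 11 of them tested. Wnt10a, Wnt10b, Wnt2b, Wnt3, Wnt3a, Wnt7a, Wnt8a and Wnt8b were too dim for the test, and the remaining tested ligands had means between -0.18 and 0.50. Of the 11, 6 had a mean above 0 and 5 below 0 (8 and 3 on the software's signals, 4 and 7 with base content correction, 5 and 6 with array weights). At the adjusted threshold 0 passed the limma test. Wnt2, Wnt7b and Wnt11 had an unadjusted p under 0.05 on the higher side (27.3% of the 11, beside 10.7% of all tested genes).

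Wnt2, a ligand of the canonical branch made in mesenchyme and in the cardiac inflow region, was the brightest ligand. Its processed signals were 918.5, 1233 and 3543 in Cy5, against 873.7, 1094 and 2332 in Cy3. The Cy5 signal was the higher one on each array, although both channels were brightest on replicate 3, so the channels overlapped when arrays were mixed. The log2 ratios after loess were 0.32, 0.34 and 0.59, which averaged 0.42 ± 0.15 (SD, n = 3; limma adjusted p = 0.211).

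Wnt7b, best known from lung epithelium and vessel remodelling, had processed signals of 1323, 791.2 and 594.0 in Cy5, against 694.1, 726.0 and 250.4 in Cy3. Its log2 ratios were 0.73, 0.08 and 0.69, so replicate 2 stood near 0 while the other arrays did not. The mean was 0.50 ± 0.36 (SD, n = 3), limma adjusted p = 0.246, and its 95% interval ran from 0.13 to 0.87. Wnt11, a ligand of the non-canonical branch with a role in outflow tract formation, had processed signals of 564.4, 652.3 and 2021 in Cy5, against 624.0, 674.7 and 1566 in Cy3. By the software's own normalization the log2 ratio was below 0 on replicates 1 and 2. By the loess normalization the 3 ratios were 0.31, 0.18 and 0.37, with a limma adjusted p of 0.355.

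Wnt5a, a further non-canonical ligand, had processed signals of 539.3, 621.1 and 614.4 in Cy5, against 567.2, 663.7 and 1049 in Cy3. Replicate 3 alone stood out, with a log2 ratio of -0.51 beside 0.07 and -0.02 (limma adjusted p = 0.690 for the mean of -0.16). Wnt9a, known from endocardial cushions, had the lowest mean among ligands, -0.18 ± 0.26 (SD, n = 3), and it rested on replicate 1 at -0.47, where replicates 2 and 3 read 0.01 and -0.07. The other tested ligands, Wnt1, Wnt16, Wnt4, Wnt5b, Wnt6 and Wnt9b, had means between -0.10 and 0.27. Wnt6 gave the highest of these and was fitted on 2 arrays, because its spot on replicate 2 was not uniform. Porcn, the acyltransferase that attaches the lipid to Wnts, had log2 ratios of -0.19, -0.11 and 0.01.

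Secreted inhibitors were split, 5 with a mean above 0 and 3 below 0 among the 8 tested (3 and 5 on the software's signals, 4 and 4 with scaling between arrays or without replicate 2 or 3). It was 4 and 2 where both channels had to be above background, which left out Sfrp4 and Sfrp5. On the probes that stood for the genes 0 passed limma's test, and 0 had an unadjusted p under 0.05. Sfrp2, a Wnt-binding protein of mesenchyme, was the brightest, with processed signals of 4122, 2116 and 4821 in Cy5, against 2495, 2339 and 7515 in Cy3. Its direction changed between arrays: log2 ratios of 0.84, 0.00 and -0.55 gave a mean of 0.10 with an SD of 0.70, the widest spread among the 36 tested genes, where the median SD was 0.15. Sfrp1, a close relative, had log2 ratios of -0.05, -0.23 and -0.34 on its brighter probe and -0.51, -0.20 and -0.33 on a second probe. All 6 lay below 0, with means of -0.21 and -0.35 and limma adjusted p of 0.506 and 0.289.

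Dkk3, a divergent member of the Dickkopf family, had processed signals of 541.9, 474.0 and 921.0 in Cy5, against 599.6, 480.3 and 990.7 in Cy3, slightly lower in Cy5 on each array. Loess placed its log2 ratios at 0.21, 0.16 and -0.02, on the other side of 0 on replicates 1 and 2, so its direction depended on the normalization. Frzb, also called Sfrp3, read -0.25, 0.24 and 0.31. Dkk1, the classical inhibitor acting on Lrp5 and Lrp6, read 0.19, 0.09 and 0.21 at a mean signal of 97.1. Dkk2 and Sfrp5 had means of -0.04 and -0.11. Sfrp4 was well above background in Cy3 on all arrays and in Cy5 on 0, so its Cy5 level is only a bound. Dkk4 was too dim for the test.

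All 10 Frizzled receptors were tested, 6 with a mean above 0 and 4 below 0 (4 and 6 on the software's signals or with median centring, 5 and 5 with base content correction). Fzd3, a receptor of the planar polarity branch that guides axons and neural crest cells, was the 1 that rose. It has 3 probes on the array, printed here because they gave different values. Each sequence is the 60-base probe as the files give it, in lower case throughout since no stretch of it is singled out, and positions are those of the files, on mm9.
A_52_P502351: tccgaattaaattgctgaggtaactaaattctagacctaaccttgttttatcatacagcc
A_51_P190863: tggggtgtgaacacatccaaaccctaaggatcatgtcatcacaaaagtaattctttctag
A_52_P168231: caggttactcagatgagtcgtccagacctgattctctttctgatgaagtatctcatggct

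The first of these, A_52_P502351 (chromosome 14, 65811641 to 65811700, minus strand), was the brightest and stood for the gene. Its processed signals were 1244, 825.2 and 3369 in Cy5, against 780.3, 327.4 and 967.2 in Cy3. Cy5 was the higher channel on every array, and the channels overlapped in 1 place, where the Cy5 signal of replicate 2 lay below the Cy3 signal of replicate 3. The log2 ratios were 0.80, 1.35 and 1.57, averaging 1.24 ± 0.40 (SD, n = 3; limma adjusted p = 0.0215) with a 95% interval from 0.85 to 1.62. Taken from the scanner software instead, the log2 ratios were 0.67, 1.33 and 1.80. In the design file of replicate 1 the probe carries the name D930050A07Rik, which RefSeq lists as a synonym of Fzd3.

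The second probe, A_51_P190863 (65811278 to 65811319), lies 321 bases from the first on the same strand. Its given span covers 42 of its 60 bases. It read processed signals of 889.3, 209.6 and 445.1 in Cy5, against 510.1, 123.7 and 337.3 in Cy3. Cy5 was again the higher channel on each array, but the log2 ratios of 0.51, 0.31 and 0.18 fell in the opposite order to those of the first probe, and their mean of 0.33 ± 0.16 (SD, n = 3) did not pass (limma adjusted p = 0.309). The third, A_52_P168231, whose span from 65831004 to 65853753 is longer than the probe itself, was dim, with processed signals of 32.0 to 58.9, and its log2 ratios of -0.09, -0.03 and 0.04 lay around 0. The call for Fzd3 therefore rested on 1 of 3 probes. It was also lost without replicate 1 (mean 1.46, limma adjusted p = 0.0718) and without replicate 2 (mean 1.18, adjusted p = 0.191), and on the software's signals (mean 1.27, adjusted p = 0.372). These settings lost nearly all calls of the array. The main fit called 395 of all tested probes higher. Without replicate 1 the count was 2, without replicate 2 it was 1, and on the software's signals 0.

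Fzd1 and Fzd2, the receptors with the brightest probes, had the lowest means of the 36 genes. For Fzd1 the processed signals were 3355, 4343 and 6043 in Cy5, against 4092, 4694 and 8265 in Cy3, with log2 ratios of -0.37, -0.08 and -0.42 and a mean of -0.29 ± 0.18 (SD, n = 3; limma adjusted p = 0.387). For Fzd2 they were 3148, 1709 and 2776 in Cy5, against 3643, 1991 and 3936 in Cy3, with log2 ratios of -0.21, -0.11 and -0.44 and a mean of -0.25 ± 0.17 (SD, n = 3; limma adjusted p = 0.436). Both genes were dimmer in Cy5 on each array, and neither passed. A second, dim probe of Fzd2 had a mean of 0.09.

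Fzd9 had processed signals of 1406, 1581 and 3054 in Cy5, against 1275, 1400 and 2748 in Cy3, and log2 ratios of 0.32, 0.36 and 0.17, with a limma adjusted p of 0.359. Cy5 was slightly the higher channel on each array. Fzd4, the receptor of vascular development that also binds the ligand Norrin, changed direction as Sfrp2 did, with log2 ratios of 0.55, 0.21 and -0.74 and a mean of 0.01 with an SD of 0.67. The remaining receptors, Fzd5, Fzd6, Fzd7, Fzd8 and Fzd10, had means between -0.16 and 0.22. Fzd10 was uneven between arrays, with Cy5 signals of 108.8, 153.4 and 1127 on its brighter probe and 143.1, 197.7 and 242.6 on the other. The log2 ratios were -0.05, 0.06 and 0.64 on the brighter probe. The other probe read 0.31, 0.45 and 0.23, with a mean of 0.33 (limma adjusted p = 0.296).

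**Figure D2:**
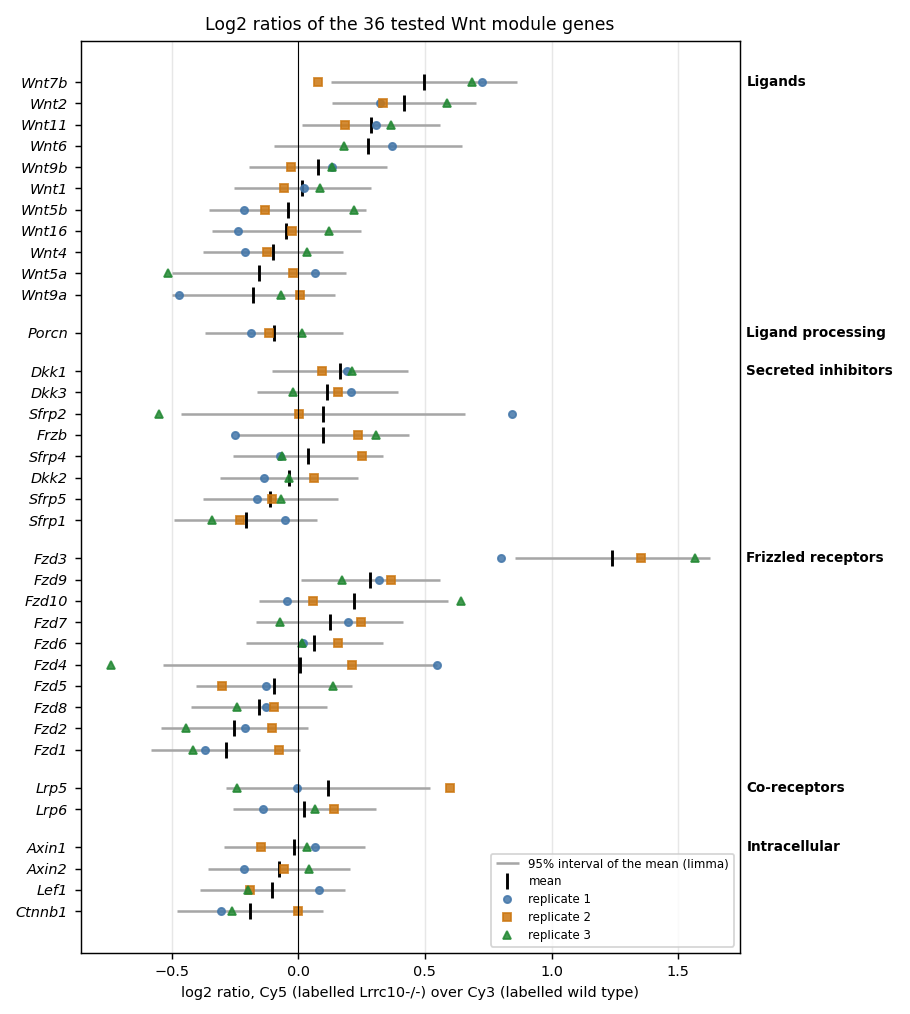
Log2 ratio of Cy5 over Cy3 (x axis) for the 36 tested Wnt genes, 1 probe per gene, grouped by role. Coloured marks are the 3 arrays, the black tick is the mean and the grey line its 95% interval from limma. Fzd3 lies at 0.80 to 1.57 on the 3 arrays with a mean of 1.24, while the means of the other genes stay between -0.29 and 0.50. On replicate 1 alone Sfrp2, at 0.84, lies above Fzd3. Sfrp4 was not well above background in Cy5, so its mark is no measured ratio.

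The co-receptors and intracellular components had small means. Lrp6 had processed signals of 354.0, 736.8 and 1068 in Cy5, against 407.3, 655.8 and 1020 in Cy3, and log2 ratios of -0.14, 0.14 and 0.07. Lrp5 had 300.9, 604.9 and 649.0 in Cy5, against 389.0, 444.7 and 879.5 in Cy3, and log2 ratios of -0.01, 0.60 and -0.24, so replicate 2 alone put its mean at 0.12. Axin1, the scaffold of the destruction complex, had 621.5, 684.7 and 378.3 in Cy5, against 701.8, 844.6 and 395.4 in Cy3. Its log2 ratios of 0.07, -0.15 and 0.04 averaged -0.02 (limma adjusted p = 0.969). Axin2, its relative and a widely used readout of canonical signalling, read -0.22, -0.06 and 0.04, and Lef1, a nuclear partner of beta-catenin, read 0.08, -0.19 and -0.20. All 4 intracellular genes had means below 0, from -0.19 to -0.02, beside 44.2% of all tested genes. It was 3 of 4 on the software's signals, with base content correction or without replicate 2. These signs are those of the probe that stood for each gene, and a further tested probe of Ctnnb1 had a mean of 0.46. By limma 0 passed, with 0 at an unadjusted p under 0.05.

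Ctnnb1 was the member whose tested probes disagreed in sign with both means beyond 0.3. Its 3 probes are printed for that reason, in lower case as above and in order of position on the plus strand.
A_52_P472397: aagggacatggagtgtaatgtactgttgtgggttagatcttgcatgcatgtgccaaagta
A_51_P272046: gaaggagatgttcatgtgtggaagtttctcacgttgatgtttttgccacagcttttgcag
A_52_P424585: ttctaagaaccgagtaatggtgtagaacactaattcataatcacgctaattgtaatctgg

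The brightest of them, A_52_P424585 (chromosome 9, 120869274 to 120869333, mm9), had processed signals of 17700, 21510 and 24660 in Cy5, against 18650, 19660 and 31200 in Cy3. Its log2 ratios were -0.31, 0.00 and -0.26, with a mean of -0.19 ± 0.16 (SD, n = 3; limma adjusted p = 0.551). A_51_P272046 (120868778 to 120868837), 436 bases away, is printed at 10 spots per array. Its array means of -0.22, -0.11 and -0.75 came with spot SDs of 0.27, 0.16 and 0.06. All 10 spots lay below 0 on replicate 3, from -0.81 to -0.64, while spots fell on both sides of 0 on replicates 1 and 2. The mean over arrays was -0.36 ± 0.34 (SD, n = 3; limma adjusted p = 0.375).

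A_52_P472397 (120865275 to 120865334) lies 3443 bases before that probe and was far dimmer, with processed signals of 1371, 2642 and 1076 in Cy5, against 560.5, 2063 and 1960 in Cy3. Its log2 ratios of 1.46, 0.54 and -0.63 ran from well above to well below 0, with a mean of 0.46 ± 1.05 (SD, n = 3). The order of the arrays was that of Sfrp2 and Fzd4, with replicate 1 highest and replicate 3 lowest. Wnt1, the other member printed at 10 spots, had array means of 0.02, -0.06 and 0.08 with spot SDs of 0.17, 0.12 and 0.03, so repeated spots of a gene near background also spread least on replicate 3.

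Disagreement of this size was seen for Fzd3 and Ctnnb1 alone among the members that could be checked. Of the 14 genes with several tested probes, Fzd3 and Ctnnb1 had probe means that differed by 1.27 and 0.82, and the other 12 had probe means within 0.35 of each other. In 7 of the 14 the probe means lay on opposite sides of 0. The differences between probes were not tested.

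**Figure D3:**
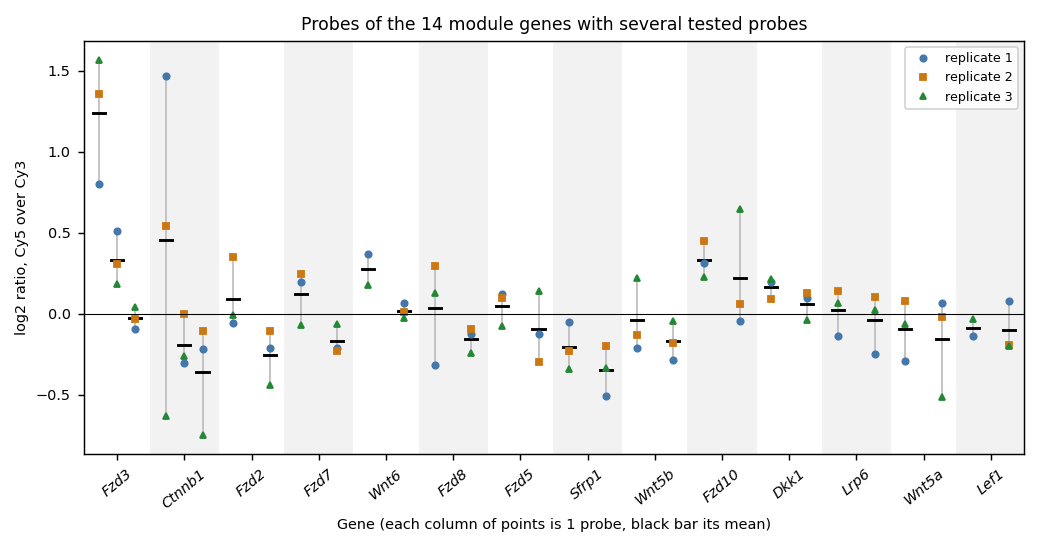
Log2 ratio of Cy5 over Cy3 (y axis) of every tested probe of the 14 Wnt genes with several tested probes. Each column of points is 1 probe on 3 arrays (2 arrays for 1 probe of Wnt6 and 1 of Lef1), the grey line joins its lowest and highest array, and the black bar is its mean. The probe means of Fzd3 run from -0.03 to 1.24 and those of Ctnnb1 from -0.36 to 0.46. The probe means of each other gene lie within 0.35 of each other. In 7 of the 14 genes they lie on opposite sides of 0.

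The rest of the pathway was read from lists of 66 further genes, of which 60 were tested. Their median log2 ratio was -0.01, with means from -0.41 to 1.11. By limma, 3 were higher (5.0%, beside the 1.82% of all genes) and 0 lower. At an unadjusted p under 0.05, 11 were higher (18.3%, beside 10.7%) and 2 lower (3.33%, beside 4.2%). The 3 were Lgr4, Apc2 and Ror2, each in another list.

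Lgr4 is a receptor for R-spondins, which strengthen Wnt signals by sparing Frizzled receptors from removal. Its brightest probe, A_52_P278566, had processed signals of 1897, 8840 and 26610 in Cy5, against 1044, 2909 and 15580 in Cy3, higher in Cy5 on each array although the arrays differed many-fold in both channels. The log2 ratios were 0.81, 1.62 and 0.90, with a mean of 1.11 ± 0.44 (SD, n = 3; limma adjusted p = 0.0330). Of its other tested probes, 1 had log2 ratios of 0.10, 0.37 and 0.43 and a mean of 0.30, and the other a mean of -0.29 with all arrays below 0. Neither passed (limma adjusted p = 0.361 and 0.381).

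Apc2, a relative of the tumour suppressor Apc in the destruction complex, had 1 probe, which lies on chromosome 10 (79778295 to 79778354, mm9), the chromosome of Lrrc10. Its processed signals were 587.0, 413.0 and 750.2 in Cy5, against 390.7, 271.7 and 246.2 in Cy3, and the lowest Cy5 signal lay above the highest Cy3 signal. Its log2 ratios of 0.75, 0.70 and 0.85 gave a mean of 0.77 ± 0.08 (SD, n = 3; limma adjusted p = 0.0285). Ror2, a receptor tyrosine kinase that binds Wnt5a, had log2 ratios of 0.74, 0.63 and 0.57 and passed narrowly (mean 0.65 ± 0.08, SD, n = 3; limma adjusted p = 0.0499), while its second probe had a mean of 0.22 with -0.15 on replicate 2. None of the 3 passed without replicate 1 (limma adjusted p from 0.166 for Lgr4 to 0.471 for Ror2) or without replicate 2 (from 0.184 for Lgr4 to 0.295 for Ror2), nor on the software's signals (from 0.388 for Lgr4 to 0.642 for Ror2). In those settings 2, 1 and 0 of all tested probes were higher, beside 395 in the main fit.

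At the lower end, Ryk, an atypical Wnt receptor, had log2 ratios of -0.49, -0.24 and -0.49 on its brightest probe and a mean of -0.45 on a second one. Both probes lay below 0 on all arrays, and neither passed (limma adjusted p = 0.218 and 0.239). Vangl1, a planar polarity protein, had a mean of -0.39 that rested on replicate 3 at -1.08, beside -0.11 and 0.02. Tnks, whose product tankyrase marks Axin for degradation, had log2 ratios of -0.36, -0.18 and -0.61 (limma adjusted p = 0.273).

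By list, 0 of 7 tested transcriptional targets passed, with 0 at an unadjusted p under 0.05. All 7 had a mean below 0, between -0.19 and -0.04, beside 44.2% of all tested genes. It was 6 of 7 on the software's signals, with scaling between arrays, and without replicate 1 or 2. On all arrays 3 of them lay below 0 (42.9%, beside 16.0% of all tested genes). These signs are those of the probe that stood for each gene. Further tested probes of Myc had means of 0.07 and 0.74 (limma adjusted p = 0.881 and 0.171). A further tested probe of Nkd1 had a mean of 0.25, and that of Tcf7 -0.14. The 3 other extracellular inhibitors that were tested, Apcdd1, Sost and Tpbg, had means from 0.21 to 0.40 on the probes that stood for them. On those probes all 3 lay above 0 on all arrays, beside 21.4% of all tested genes, and none passed the threshold. A second tested probe of Sost read -0.03, -0.13 and 0.37, and that of Apcdd1 had a mean of -0.002. Of the 10 planar polarity genes, 13 nuclear partners of beta-catenin and 17 cytoplasmic transducers, 1 passed, Apc2. Wls, which carries Wnts to the cell surface, had a mean of -0.03. These lists hold few genes, and no list was tested as a whole.

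**Figure D4:**
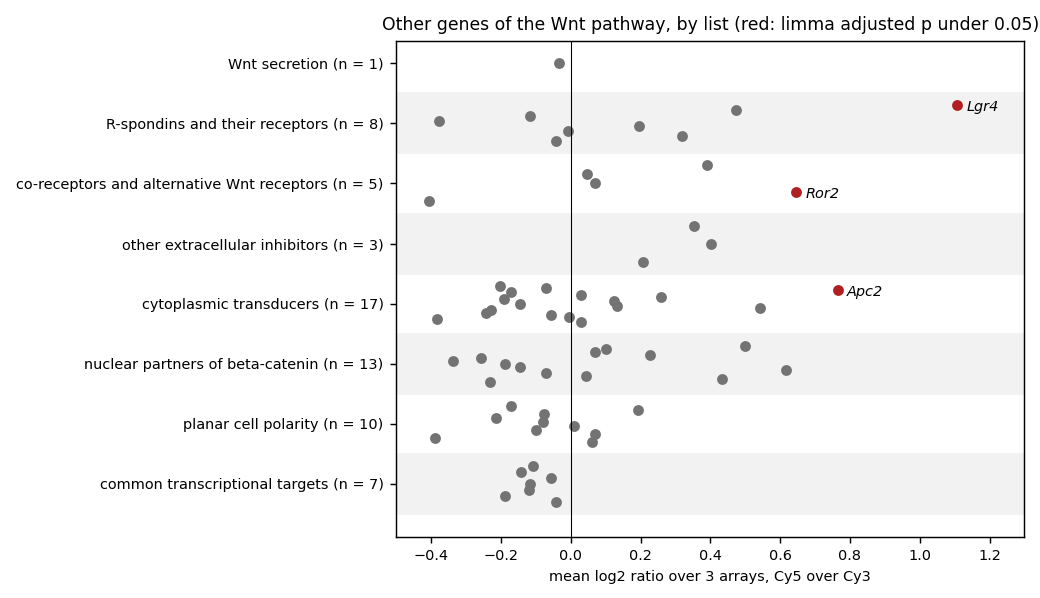
Mean log2 ratio of Cy5 over Cy3 over the arrays (x axis) of the tested genes in 8 lists of other Wnt pathway genes, 1 point per gene, with some genes in 2 lists. Red points passed the limma test. Lgr4 at 1.11, Apc2 at 0.77 and Ror2 at 0.65 are the red points, and the 7 transcriptional targets lie left of 0 (6 of 7 on the software's signals, with scaling between arrays, and without replicate 1 or 2). Each point is the probe that stood for the gene, and further tested probes of Myc and Nkd1 had means above 0.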

How the data were processed

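Scanner files of 3 arrays were used. Per the file headers, spot intensities were extracted by the authors with Agilent Feature Extraction 9.1.3.1 (replicate 1, G2505B scanner) and 10.7.3.1 (replicates 2 and 3, G2505C scanner), and the submitters' processing notes name version 9.5. The deposited processed signal is an intensity after background subtraction and dye normalization, and the deposited log10 ratio and p-value are the software's own. The deposited series table equalled the log10 ratios (largest difference 0), so its scale and direction are Cy5 over Cy3, with array medians of -0.0096, -0.0080 and 0.

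Normalization and tests used limma 3.58.1 (R 4.3.3): normexp with an offset of 50, loess within arrays, flagged spots left out, spots of a probe averaged. Probes well above background in Cy5 or in Cy3 on all 3 arrays (28328) were tested against 0 with lmFit and eBayes, two-sided, Benjamini-Hochberg threshold 0.05. On simulated data for the Cy5 against Cy3 comparison (28328 probes), 75% of probes changed by 1 and 100% of those changed by 2 on the log2 scale were recovered, with 9 false calls.

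The arrays are pools from different embryos per the study's methods. Of 27730 probes with a RefSeq accession, 27030 were renamed or kept by a match to a RefSeq table. Other probes took a symbol of that table that matched a design name, or the gene of an unambiguous synonym. The rest kept their name. For 5 member probes the files' names differ between designs. Probe sequences and mm9 positions are the files'. The 1.2-fold rule also asked for a software p under 0.05 and a processed signal of at least 20 on each array. Gene selection with EDGE3, named in the study's methods, was not rerun.

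The members and lists were chosen with earlier results of these data known. Genes named are the 4 brightest of each role, those called, the 5 highest and 5 lowest means, genes with probes of opposite sign beyond 0.3, and, of other pathway genes, those called and the 3 highest and 3 lowest, with further members named to account for all. Alternatives covered background correction, normalization, filters, the test and each array left out.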

Additional observations from a re-analysis of the deposited data

How the results depend on the processing

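No member was lower under any alternative. The number of members higher, 1 (Fzd3), was 0 with the software's processed signals, the series table, no background correction, scaling between arrays, no filter on dim probes, the methods' t-test and a block for software version, and 0 to 1 with an array left out. The calls over all tested probes moved too, from 395 higher and 1 lower in the main fit. They were 0 with the processed signals, series table, scaling and t-test, and 1 higher with no background correction and with the version block. Without the dim filter 145 were higher. Without replicates 1, 2 and 3 in turn, 2, 1 and 1540 were higher and 0, 0 and 248 lower. Wherever 1 member was higher it was Fzd3. Its mean stayed between 1.08 and 1.46, with adjusted p from 0.000365 to 0.372 over the limma alternatives and 0.519 by the methods' t-test. The members' median of 0.011 became -0.025 with median centring and -0.026 without the dim filter, and lay between -0.017 and 0.013 with an array left out. The 1.2-fold rule took 2 members with loess ratios and limma's unadjusted p in place of the software's (Wnt2 joined), and 1 to 2 with an array left out. The 3 other pathway genes became 0 with the processed signals, series table, no background correction, scaling, t-test and version block, 1 with median centring and without the dim filter, 2 with base content correction (Ror2 lost, adjusted p = 0.0964), 5 with array weights, and 0 to 7 (higher) or 0 to 1 (lower) with an array left out, the 7 and 1 without replicate 3. With an intensity trend they stayed 3, with Ror2 lost (adjusted p = 0.0707) and Lgr6 gained. Lrrc10 stayed higher but missed the threshold with processed signals and series table (5.21), scaling (4.58) and the t-test (4.41). The cause was not tested.

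Gene by gene, the alternatives were followed only for genes picked by brightness, call, extreme mean or opposite probes. Among these, means turned sign in genes that never passed: with processed signals and the series table for Dkk3 (-0.090), Lrp5 (-0.12) and Sfrp2 (-0.020), with median centring for Lrp6 (-0.024), with scaling for Sfrp2 (-0.030) and with base content correction for Axin1 (0.058). Other members were not followed in this way. Axin2 is 1 of them, with log2 ratios of -0.29, 0.29 and 0.14 by the software, beside -0.22, -0.06 and 0.04 after loess. With an array left out, means ran from -0.057 to 0.051 for Axin1, -0.0074 to 0.27 for Frzb, -0.12 to 0.30 for Lrp5, -0.036 to 0.10 for Lrp6, -0.27 to 0.42 for Sfrp2 and -0.27 to 0.023 for Wnt5a. No paired analysis was possible because the main test already pairs the genotypes within each array, which leaves no further pairing to add. Leaving out an array leaves 2, and spots near background limit the ratios of the dimmer ligands.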
